A study of Trichoderma reesei with 6 samples.

Results

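The comparison described here set mycelia of Trichoderma reesei QM9414 grown on lactose against mycelia of the same strain grown on glucose. It compares 4 of the 6 arrays of the series, 2 of lactose cultures and 2 of glucose cultures. The other 2, of glycerol cultures, were used to sort the genes that differed. They also entered the estimate of spread behind the standard errors and p-values. QM9414 is a mutant selected for raised cellulase secretion, and all cultures were submerged mycelia from shake flasks with 10 g/l of the carbon source. The study describes pregrowth on glycerol, washing and transfer for shake flask cultures. It does not say whether the array cultures were grown in this way. By the labels, lactose cultures grew for 28 h and the others for 24 h, whereas the methods of the study give 1 time for all cultures. Carbon source and harvest time thus cannot be told apart. The study also places the harvest in the initial growth phase, defined by the share of the carbon source consumed. The labels describe duplicate flasks but also a mixing of several mycelia before extraction, so the p-values given here measure the spread between these arrays, which may be technical.

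Lactose is a disaccharide of glucose and galactose. It can be cleaved outside the cell or taken up by permeases, and its galactose is metabolised by the Leloir pathway, which starts with galactokinase, or by a reductive route that shares enzymes with pentose catabolism. Lactose is a soluble carbon source on which this fungus forms cellulases, while glucose represses genes of alternative pathways through the carbon catabolite repressor CRE1. Glycerol is used as a carbon source that neither induces cellulases nor represses as glucose does.

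The signals are log2 values, 1 for each of 9126 array features, and all levels below are on that scale. Array medians lay between 10.80 and 10.85, and single signals between 2.70 and 15.90. A signal below 4.66, the 10th percentile of all signals, is called here the low end of the arrays, since no background flags came with the values. Across features, the replicate arrays correlated with r = 0.998 on lactose and 0.998 on glucose. In tef1, the translation elongation factor gene that the study used as its qPCR reference, the signals were 13.66 and 13.64 on lactose, against 13.90 and 13.57 on glucose, and the groups overlapped.

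Higher and lower calls were made where the lactose and glucose means differed by over 2-fold and the adjusted p from limma, corrected by Benjamini-Hochberg over all features, was under 0.05. By this rule 1417 genes (15.5% of all features) were higher on lactose and 1264 (13.9%) lower, in all 2681 (29.4%). The median difference of all features was -0.06. The fold limit set these counts, since every gene past it also passed the adjusted p, and 5743 genes passed the adjusted p alone. The lactose and glucose arrays did not overlap for 7594 features (83.2%), so a lack of overlap alone says little about a gene.

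The glycerol arrays divided these genes. Of the 1417 genes that were higher than on glucose, 929 were also over 2-fold higher than on glycerol, 433 lay within 2-fold of glycerol, and 55 were over 2-fold lower than on glycerol. Of the 1264 genes that were lower than on glucose, 664 were also over 2-fold lower than on glycerol, 566 lay within 2-fold, and 34 were over 2-fold higher. The genes within 2-fold of glycerol thus made up 30.6% of the higher and 44.8% of the lower calls. Both glycerol and glucose were compared with the same lactose arrays, so these divisions describe the choice of genes and were not tested.

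**Figure D1:**
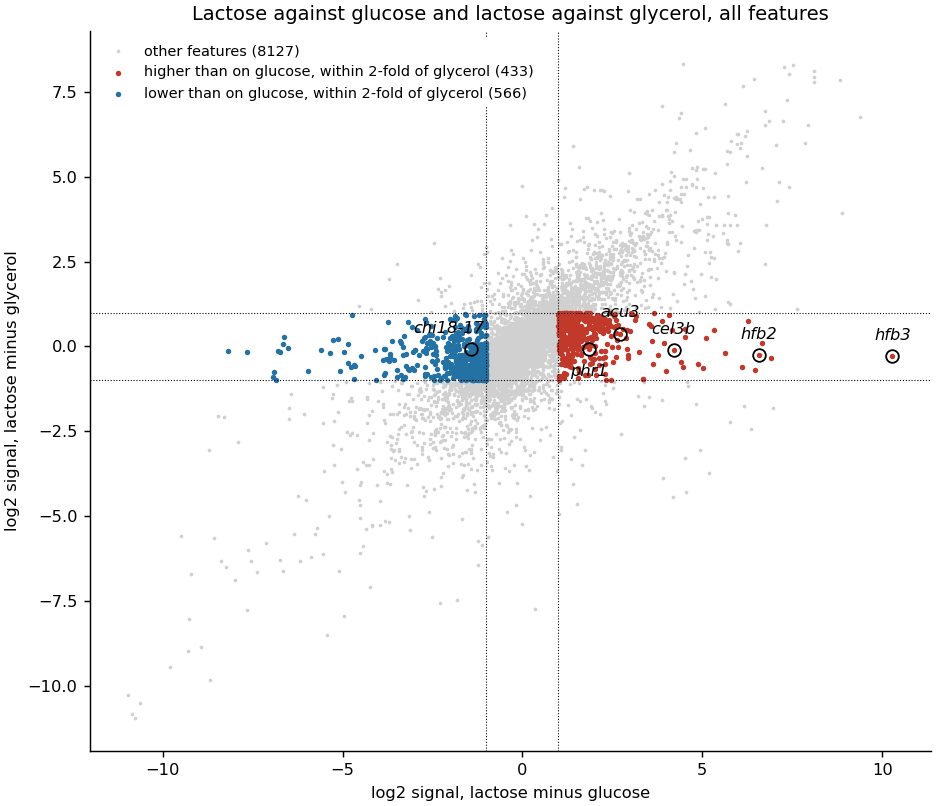
Each point is 1 of 9126 features, with the lactose minus glucose difference on the x axis and the lactose minus glycerol difference on the y axis (log2, group means of 2 arrays); dotted lines mark 2-fold. Red and blue points are the 433 higher and 566 lower genes within 2-fold of glycerol, of which hfb3 lies farthest to the right at 10.28.

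The 999 genes that differed from glucose but lay within 2-fold of glycerol (4.74% of all features higher, 6.2% lower) are described in the rest of this section. Their differences were smaller than those of genes that also differed from glycerol in the same direction. Both differences use the same lactose arrays, so the glycerol limit itself favours smaller folds. The medians therefore describe the choice of genes. The median fold was 2.66 for the 433 higher genes, against 4.35 for the 929 higher genes that differed from glycerol too. For the 566 lower genes it was 2.63, against 3.82 for the corresponding 664.

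Among the 433 higher genes, 330 differed by 2- to 4-fold and 103 by over 4-fold, 19 of these by over 16-fold. Their median signal was 11.30 on lactose, 10.85 on glycerol and 9.47 on glucose. Among the 566 lower genes, 441 differed by 2- to 4-fold and 125 by over 4-fold, 27 of these by over 16-fold. Their median signal was 9.62 on lactose, 10.15 on glycerol and 11.31 on glucose. The low end was reached by 20 of the 433 higher genes on glucose and by 65 of the 566 lower genes on lactose. Over all 9126 features it was reached by 923 on glucose and 897 on lactose. The folds of the 20 and 65 genes were measured against that low end.

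Lying within 2-fold of glycerol did not always mean that glycerol differed from glucose. Glycerol was over 2-fold above glucose for 234 of the 433 higher genes and over 2-fold below it for 281 of the 566 lower genes. For 337 higher and 460 lower genes the glycerol mean lay between those of lactose and glucose. For the other 96 and 106 it lay beyond lactose.

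The spread between replicate arrays was like that of the array as a whole. The median SD was 0.077 on lactose and 0.104 on glucose for the higher genes, 0.089 and 0.101 in the same order of carbon sources for the lower genes, and 0.084 and 0.090 over all features (n = 2 arrays each). The median gene length in RefSeq was 1466 bases for the higher genes and 1440 for the lower genes, against 1503 for all 9094 features with a RefSeq locus tag.

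Nearly all of these genes are without a name in the sources used here. RefSeq gives a symbol to 235 of the features, and 13 of them are among the 999 genes, 7 higher and 6 lower. The supplementary gene tables of the study annotate 1540 features, chosen because they differed from both glucose and glycerol, and so hold none of the 999. The remaining 986 have only a protein ID.

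The highest measured rise of the whole array was in hfb3, which codes for a hydrophobin, a small amphipathic protein secreted to the hyphal surface. Its signals were 13.76 and 13.67 on lactose and 14.02 and 13.99 on glycerol, against 3.15 and 3.71 on glucose. Both glucose arrays lay at the low end and far from all others. The difference from glucose was 10.28 ± 0.18 (SE), or 1247-fold (adjusted p = 2.41e-09, limma).

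Its relative hfb2, which codes for a class II hydrophobin abundant on aerial hyphae and conidia, had the same order of levels. Its signals were 13.74 and 13.66 on lactose and 13.95 and 13.97 on glycerol, against 6.72 and 7.54 on glucose. The lactose arrays were just below the glycerol arrays and clear of the glucose arrays. hfb2 rose by 6.57 ± 0.23, or 95.3-fold (adjusted p = 6.79e-08, limma).

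The third hydrophobin gene with a symbol, hfb1, did not pass. Its mean signal was 6.57 ± 0.06 on lactose and 9.37 ± 0.34 on glycerol, against 6.89 ± 0.14 on glucose (SD, n = 2 arrays each). It was thus highest on glycerol and lay on lactose just below glucose, with a difference of -0.32 (adjusted p = 0.132, limma).

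hfb2 was also listed as a marker of conidiation, together with genes annotated as conidiation-specific protein 10 (Trire2:5084) and as the developmental regulator WetA (Trire2:4430). All 3 were higher on lactose than on glucose, of which Trire2:5084 and Trire2:4430 come from a table that the study chose on these arrays. Conidiation-specific protein 10 had 11.95 and 11.67 on lactose and 6.46 and 5.72 on glycerol, against 7.51 and 7.68 on glucose. WetA had 8.39 and 8.20 on lactose and 6.21 and 6.17 on glycerol, against 7.35 and 7.02 on glucose. On glycerol, where hfb2 was highest, both genes were below their glucose levels. The summed linear signal of the 3 markers was 16466 to 18016 on lactose and 16000 to 16156 on glycerol, against 452 to 521 on glucose, and hfb2 made up most of it on lactose and glycerol. The part of conidiating cells in the hydrophobin values was not tested.

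Of 17 cellulase and hemicellulase genes with a symbol, 13 were higher on lactose and 0 lower, with a median difference of 3.02 against -0.06 for all features. Counts in this and the other lists stand beside 15.5% higher and 13.9% lower over all features. cel7a, the gene of the main secreted cellobiohydrolase, and the endoglucanase genes cel5a and cel12a rose by 7.95, 7.35 and 6.18, and each was over 2-fold above glycerol too. The polysaccharide monooxygenase gene cel61b rose by 5.97. The folds of cel5a, cel12a and cel61b were measured against glucose and glycerol signals at the low end. The acetyl esterase gene axe2 lay below 0 at -0.74 and did not pass.

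A single gene of the 13 was within 2-fold of glycerol. This was cel3b, which codes for a GH3 ß-glucosidase, an enzyme that splits cellobiose and other short glucosides. Its signals were 10.19 and 10.10 on lactose and 10.40 and 10.09 on glycerol, against 5.62 and 6.27 on glucose. The lactose and glycerol arrays overlapped and all 4 lay above both glucose arrays. cel3b rose by 4.20 ± 0.21, or 18.4-fold (adjusted p = 5.36e-07, limma), whereas its difference from glycerol was -0.10.

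**Figure D2:**
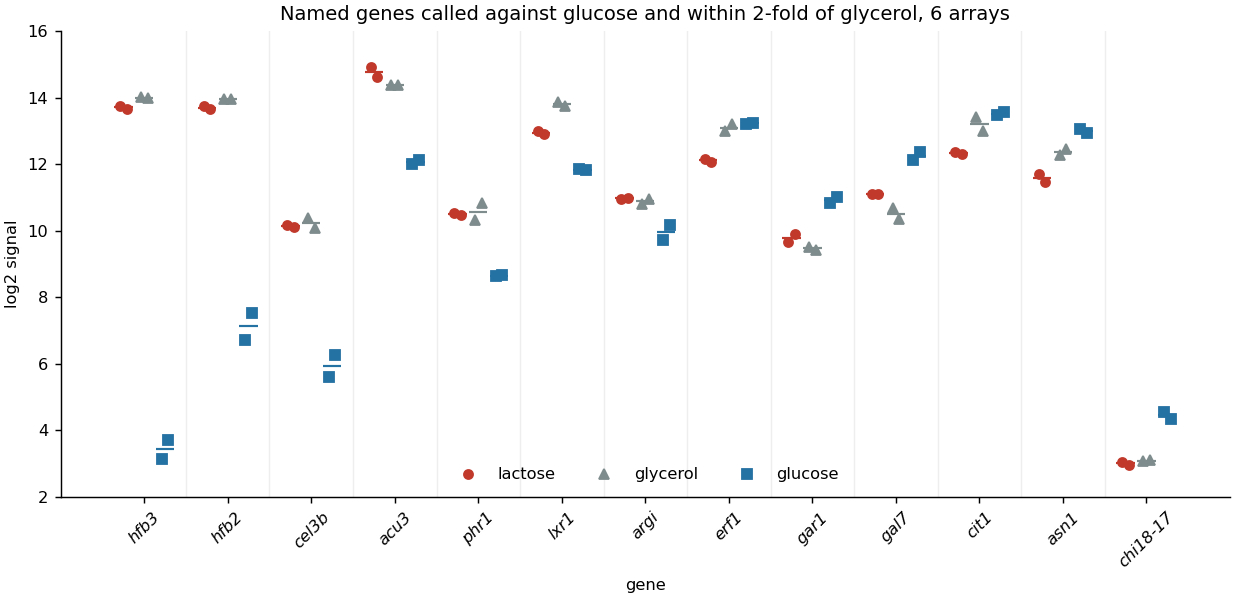
Log2 signals of the 13 genes with a symbol that differed from glucose and lay within 2-fold of glycerol, in order of their difference. Each point is 1 array, bars are means of 2, and lactose (red circles), glycerol (grey triangles) and glucose (blue squares) run from left to right. By these means glucose stands farthest from both others in hfb3, hfb2, cel3b, acu3 and phr1. It is also clear of both, by less, in further genes such as gar1 and gal7.

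Both genes particular to the glyoxylate cycle, which allows growth on compounds that enter metabolism as acetyl-CoA, were higher on lactose. acu3, named after the Neurospora crassa gene for isocitrate lyase, had 14.93 and 14.62 on lactose and 14.40 and 14.40 on glycerol, against 12.01 and 12.12 on glucose. Glucose was low and the other 4 arrays were close together near the top of the signal range. acu3 rose by 2.71 ± 0.13, or 6.55-fold (adjusted p = 5.24e-07, limma), and was 0.38 above glycerol.

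The malate synthase gene acu9 followed a graded order. Its signals were 13.93 and 14.09 on lactose and 12.76 and 12.74 on glycerol, against 11.50 and 11.38 on glucose. It rose by 2.57 (5.94-fold) and, unlike acu3, was over 2-fold above glycerol as well, by 1.26.

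The citrate synthase gene cit1, whose product starts the TCA cycle, was lower on lactose. Its signals were 12.36 and 12.31 on lactose and 13.42 and 13.01 on glycerol, against 13.48 and 13.56 on glucose. The lactose arrays were the lowest, and the glycerol arrays lay nearer to glucose than to lactose. cit1 fell by 1.18 ± 0.15, or 2.27-fold (adjusted p = 0.000166, limma). It was 0.88 below glycerol, and without glycerol replicate 2 this was 1.08, which takes it past the 2-fold limit.

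Of the 12 genes of glycolysis, the TCA and glyoxylate cycles and acetyl-CoA supply, 2 were higher (acu3 and acu9) and 1 lower (cit1), with a median of -0.26. Enolase, eno1, was at -0.87, isocitrate dehydrogenase, idh2, at -0.47, and ATP citrate lyase subunit acl2 at -0.52, none past 2-fold. Hexokinase (hxk1, -0.23), glyceraldehyde-3-phosphate dehydrogenase (gpd1, -0.29), phosphoglycerate kinase (pgk1, 0.09) and acetyl-CoA synthetase (acs1, 0.22) lay closer to 0.

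The 9 genes listed by symbol under galactose and pentose metabolism were split, with 3 higher, 2 lower and a median of -0.09. In the Leloir pathway, the galactokinase gene gal1 was lower on lactose than on glucose. Its signals were 8.39 and 8.62 on lactose and 10.42 and 10.84 on glycerol, against 11.62 and 11.36 on glucose. The lactose arrays were lowest and the 3 groups did not overlap. gal1 fell by 2.98 ± 0.17, or 7.91-fold (adjusted p = 1.37e-06, limma).

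gal7, the gene of galactose-1-phosphate uridylyltransferase, the next enzyme of that pathway, was lower on lactose by less. Its signals were 11.09 and 11.11 on lactose and 10.67 and 10.36 on glycerol, against 12.14 and 12.36 on glucose. Here glycerol was the lowest group and glucose the highest. gal7 fell by 1.15 ± 0.14, or 2.21-fold (adjusted p = 0.000160, limma), and was 0.59 above glycerol. gal10, the UDP-glucose 4-epimerase gene, did not pass, with a difference of -0.09 (adjusted p = 0.594, limma).

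Of the genes listed for pentose catabolism, 3 went the other way, of which lxr1 was placed there by its name alone. lad1, coding for L-arabinitol 4-dehydrogenase, had 10.93 and 10.30 on lactose and 8.35 and 8.41 on glycerol, against 7.51 and 7.81 on glucose, a rise of 2.95. The xylose reductase gene xyl1 rose by 1.49 and was lowest on glycerol, at 9.08 and 8.70 against 9.97 and 9.68 on glucose. lxr1, named for L-xylulose reductase, had 13.01 and 12.90 on lactose and 13.88 and 13.76 on glycerol, against 11.86 and 11.82 on glucose.

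In lxr1 the levels thus stood highest on glycerol, with lactose between. It rose by 1.11 ± 0.11 against glucose, or 2.16-fold (adjusted p = 4.82e-05, limma), and was 0.87 below glycerol. The xylitol dehydrogenase gene xdh1 was at 0.49 and the pentose phosphate pathway genes zwf1 and pgd1 at -0.57 and -0.40, none past 2-fold. gar1, the D-galacturonate reductase gene of pectin sugar breakdown, had 9.66 and 9.91 on lactose and 9.53 and 9.41 on glycerol, against 10.84 and 11.02 on glucose. It fell by 1.14 ± 0.13, or 2.21-fold (adjusted p = 0.000104, limma), with the glucose arrays above all others.

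**Figure D3:**
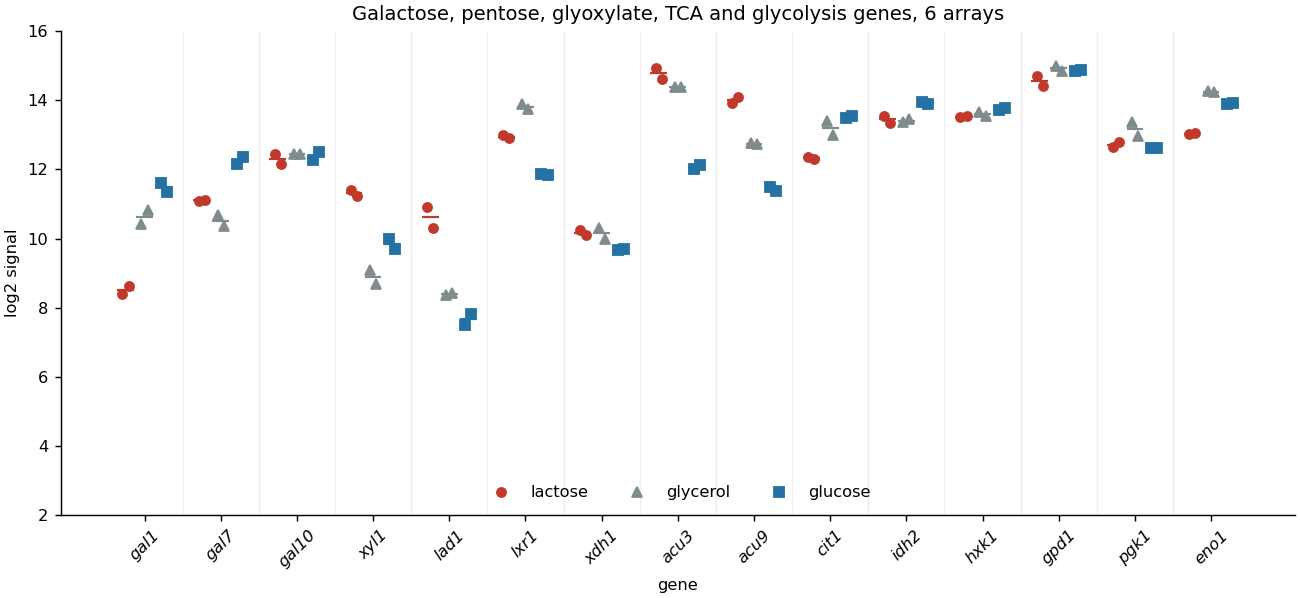
Log2 signals of 15 genes listed by symbol for galactose, pentose, glyoxylate, TCA and glycolysis metabolism. There is 1 point per array and bars are at the means of 2, with lactose, glycerol and glucose from left to right within each gene. The gal1 and gal7 points of lactose lie below those of glucose, while those of xyl1, lad1, lxr1, acu3 and acu9 lie above them.

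The photolyase gene phr1, whose product repairs ultraviolet damage to DNA with light energy, had 10.54 and 10.48 on lactose and 10.32 and 10.83 on glycerol, against 8.65 and 8.66 on glucose. The lactose arrays lay between the glycerol arrays, and both groups were above glucose. phr1 rose by 1.86 ± 0.17, or 3.62-fold (adjusted p = 2.02e-05, limma).

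argi was the higher gene closest to the 2-fold line. Its signals were 10.97 and 10.98 on lactose and 10.81 and 10.97 on glycerol, against 9.74 and 10.16 on glucose. The glucose replicates differed from each other by more than the lactose and glycerol arrays did, and the difference of 1.02 ± 0.16 (adjusted p = 0.000514, limma) was 0.81 without glucose replicate 1 and 1.00 after a further quantile normalization, both under 2-fold. Just outside the line stood snf1, coding for the kinase that in Saccharomyces cerevisiae relieves glucose repression. It had 12.82 and 12.52 on lactose and 12.80 and 12.56 on glycerol, against 11.65 and 11.85 on glucose, a difference of 0.92.

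Among the lower genes, asn1, coding for asparagine synthetase, had 11.70 and 11.47 on lactose and 12.27 and 12.46 on glycerol, against 13.07 and 12.94 on glucose. The 3 groups did not overlap, with glycerol between. asn1 fell by 1.42 ± 0.13, or 2.67-fold (adjusted p = 2.81e-05, limma), and was 0.78 below glycerol.

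erf1, coding for the release factor that ends translation at stop codons, had 12.16 and 12.08 on lactose and 13.01 and 13.20 on glycerol, against 13.20 and 13.26 on glucose. Glycerol was close to glucose, and lactose was lower than both. It fell by 1.11 ± 0.12, or 2.16-fold (adjusted p = 6.23e-05, limma). At 0.98 below glycerol it was the lower gene with a symbol closest to the glycerol limit, and it was past that limit without lactose replicate 1 (1.02 below) or without glycerol replicate 1 (1.08 below). The annotated gene just outside, a glutathione S-transferase gene (Trire2:112633), lay 1.00 below glycerol and 2.74 below glucose.

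The chitinase gene chi18-17 had 3.06 and 2.97 on lactose and 3.07 and 3.10 on glycerol, against 4.57 and 4.35 on glucose. All 6 signals were at the low end, with a difference of -1.44 (adjusted p = 1.40e-05, limma). Of the 20 genes for chitinases and N-acetylglucosaminidases, 1 was higher (chi18-rel1, by 2.89) and 2 lower (chi18-17, and chi18-12 at -2.16 with lactose at the low end), with a median of -0.01.

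Of the genes with no annotation, the 2 largest rises with both group means above the low end were in Trire2:120697 and Trire2:120823. Trire2:120697 had 11.73 and 11.73 on lactose and 12.31 and 11.85 on glycerol, against 4.49 and 5.17 on glucose, a rise of 6.90 (119-fold) for which 1 of the 2 glucose arrays was at the low end. Trire2:120823 had 13.77 and 13.63 on lactose and 13.77 and 13.43 on glycerol, against 7.05 and 7.06 on glucose, a rise of 6.65 (100.2-fold). In both genes the lactose and glycerol arrays overlapped or lay close together, far above the glucose arrays.

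The 2 largest falls with both group means above the low end were in Trire2:64049 and Trire2:6005. Trire2:6005 had 5.90 and 5.80 on lactose and 5.82 and 6.12 on glycerol, against 12.68 and 12.62 on glucose, and fell by 6.80 (111-fold). Trire2:64049 had 5.31 and 5.94 on lactose and 6.60 and 6.63 on glycerol, against 12.50 and 12.46 on glucose, and fell by 6.86 (116-fold). Its place within 2-fold of glycerol was unsure, since it was 0.99 below glycerol, but 1.31 below without lactose replicate 2, 1.01 below without glycerol replicate 1 and 1.16 below after a further quantile normalization.

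Some of the 999 genes were neighbours. In the gene order of the RefSeq assembly of strain QM6a, 197 of the 997 genes that could be placed stood directly beside another of them that differed in the same direction. The reference names no chromosomes, so ends of sequences were read from drops in the start position and a pair across an undetected end is possible. They formed 81 pairs, 9 runs of 3 genes and 2 runs of 4 genes, and of the 11 runs of 3 or more, 3 were higher and 8 lower on lactose. Whether this is more than the order of genes would give by itself was not tested. The members of both runs of 4, described next, were chosen after their values were seen.

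One run of 4 lower genes lay directly beside cel7a, which went in the opposite direction. Its leading gene, Trire2:69529, had 4.04 and 4.09 on lactose and 4.17 and 4.16 on glycerol, against 9.70 and 9.63 on glucose, and fell by 5.60 (48.6-fold). The other 3 genes (Trire2:69563, Trire2:5789 and Trire2:69555) were 5.29-, 3.68- and 2.68-fold lower than on glucose. cel7a itself had 14.23 and 14.22 on lactose and 7.64 and 7.78 on glycerol, against 6.12 and 6.45 on glucose. The gene on its other side, Trire2:69483, was at -0.11 and did not pass. On lactose, 3 of the 4 genes of the run were at the low end, and their folds were measured against it.

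The other run of 4 held Trire2:64049. Its neighbours in the run, Trire2:108781, Trire2:108783 and Trire2:108784, were 14.2-, 12.9- and 9.47-fold lower on lactose, and their glucose signals lay between 10.84 and 11.88. The gene after the run, Trire2:64358, was also lower, by 2.53-fold, but lay 1.07 below glycerol and so outside the limit. The 2 genes before it were at -0.33 and -0.56 and did not pass.

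**Figure D4:**
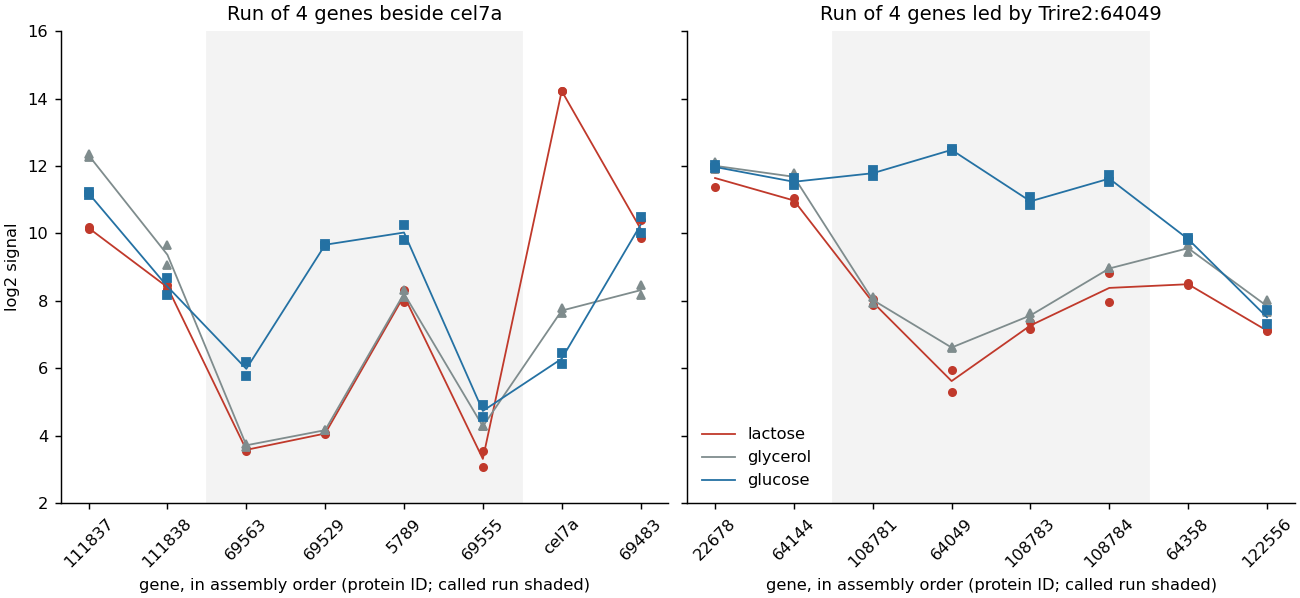
Log2 signals of the 2 runs of 4 neighbouring lower genes (shaded) with 2 genes on either side, in the gene order of the assembly; points are arrays and lines join the means of 2 for lactose (red circles), glycerol (grey triangles) and glucose (blue squares). In the shaded genes lactose and glycerol lie below glucose, whereas cel7a is far higher on lactose.

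In other groups of genes with a symbol, few or no members passed. Of 42 ribosomal protein genes, 0 were higher and 0 lower. Of these, 41 lay below 0, as did 4938 of all 9126 features. Their differences ran between -0.85 and 0.14 with a median of -0.38. Of 6 proteasome subunit genes all lay below 0, with a median of -0.93, and 1 passed (psa5, at 12.21 and 12.08 on lactose against 13.76 and 13.79 on glucose). psa6, at -0.99, was just outside the 2-fold line, and past it without lactose replicate 1 or glucose replicate 2.

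Among the other symbol lists, the 3 mitochondrial genes atp1, atp2 and gem1 lay between -0.63 and -0.35, and 0 passed. Of 3 translation factor genes erf1 alone passed, while tef2 and tef1a lay at -0.34 and -0.37. Of 29 signalling genes 0 passed, with a median of 0.00 and a range between -0.77 and 0.92. Of 12 chaperone and secretory pathway genes, sar1, coding for the GTPase of COPII vesicles, and sso1, coding for a plasma membrane t-SNARE, were 2.41- and 2.17-fold lower, and both were over 2-fold below glycerol as well, sso1 by 1.06, which was 0.98 after a further quantile normalization. Of 7 genes for histones, dynactin and SKP1, the centractin gene ro-4 alone passed, 2.53-fold lower. It lay 1.01 below glycerol, and was within 2-fold of it under 3 alternatives, at 0.96 below after a further quantile normalization, 0.98 without lactose replicate 2 and 0.95 without glycerol replicate 1. Both genes of the list for catalase and superoxide dismutase rose, sod1 by 3.62 and cat1, at the low end on glucose and glycerol, by 4.01.

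Of 9 regulator genes, 1 passed. This was xyr1, the activator of cellulase and xylanase genes, with 12.88 and 12.63 on lactose and 9.31 and 9.46 on glycerol, against 8.02 and 7.86 on glucose, or 28.2-fold higher than on glucose. The repressor gene cre1 was at 14.22 and 14.35 on lactose and 14.26 and 14.02 on glycerol, against 13.93 and 13.97 on glucose, a difference of 0.34. In all, 31 of the 235 genes with a symbol were higher and 14 lower, with a median of -0.09. Over all 9126 features, 1417 (15.5%) were higher and 1264 (13.9%) lower, so genes with a symbol were called less often. The 7 and 6 genes described above are those within 2-fold of glycerol, and the other called genes with a symbol differed from glycerol by over 2-fold too.

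**Figure D5:**
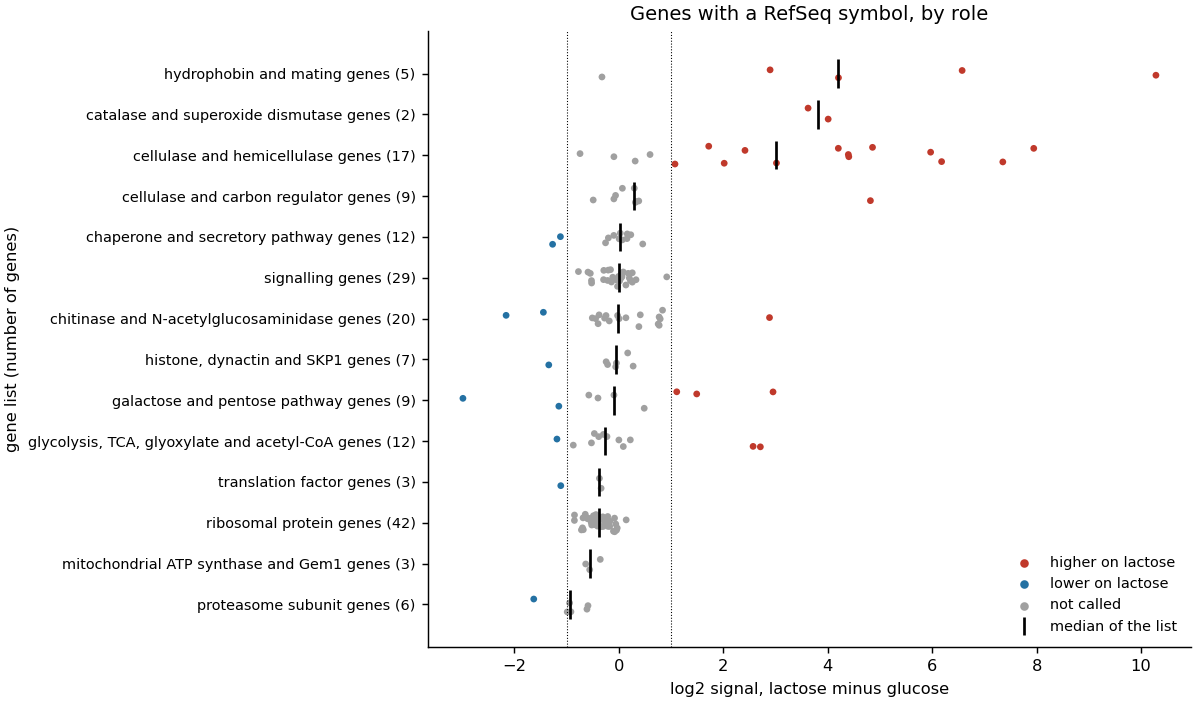
Lactose minus glucose differences (log2) of the genes with a RefSeq symbol, 1 point per gene, grouped by role with the number of genes in brackets; red points were higher, blue lower and grey not called, black bars are medians, and the vertical scatter within a row has no meaning. Hydrophobin and mating, catalase and superoxide dismutase, and cellulase genes have medians of 4.21, 3.82 and 3.02, and those of the other lists lie between -0.93 and 0.30.

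Genes for mating, a marker of another stage, moved with the carbon source as well. Of 5 such genes, which the study chose on these arrays, all 5 were higher on lactose, among them the mating type gene mata1 (4.21) and the peptide pheromone precursor gene min1 (2.90, annotated as hpp1). Their summed linear signal was 46925 to 49293 on lactose and 7655 to 8176 on glycerol, against 5256 to 5494 on glucose. With hfb1, hfb2 and hfb3, mata1 and min1 form a list of 5, of which 4 were higher.

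The annotation of the study, made for genes chosen on these arrays because they differed from both other carbon sources, gives larger lists, whose direction is therefore not independent evidence. None of their members lay within 2-fold of glycerol. Of 78 MFS transporter genes 69 were higher and 9 lower, with Trire2:105260, Trire2:76897, Trire2:121441 and Trire2:3405 rising by 8.83, 7.42, 7.24 and 6.86. Trire2:3405 is the lactose permease gene of the study, and Trire2:105260 was at the low end on glucose and glycerol. In the qPCR of the study, Trire2:105260 and Trire2:121608 were lower on lactose than on glucose, opposite to their array values. The other MFS genes tested had higher means on lactose. Those of Trire2:3405 and Trire2:79202 rose by more than on the arrays, and those of Trire2:69957 and Trire2:70349 by far less. A note in the supplement gives a later harvest for this qPCR than for the arrays. The rises of Trire2:105260 and Trire2:121608 are therefore uncertain, and the size of others is not settled. The largest falls were those of Trire2:43701 and Trire2:80879, by 6.66 and 6.36. Of 60 regulator genes of the Zn2Cys6, C2H2 and bZIP types 52 were higher and 8 lower, with Trire2:65854 at 7.14 and Trire2:105269 at 6.04, both at the low end on glucose. The Zn2Cys6 gene Trire2:102499 was at -9.22, with lactose at the low end, and the bZIP gene Trire2:72780 at -3.65.

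Of 17 genes for iron and copper, 4 were higher and 13 lower. 3 of them, the ferric reductase gene Trire2:23353 and the copper transporter genes Trire2:52315 and Trire2:62716, were among the 5 largest falls of the array, at -10.86, -10.78 and -10.63, with lactose at the low end and glycerol close to glucose. Against the rest, the iron transporter gene Trire2:38812 rose by 7.28 and the copper transporter gene Trire2:69426 by 1.85. Of 30 protease and peptidase genes 19 were higher and 11 lower, with the lowest differences in Trire2:82623 (-8.72), pap1 (-6.48), Trire2:111121 (-5.42, lactose at the low end) and Trire2:103039 (-4.91). The other 2 of the 5 largest falls were those of the monooxygenase gene Trire2:73623, at -10.96, and of Trire2:105156, at -9.81, again with lactose at the low end. The highest measured rises after hfb3 were those of the amino acid transporter gene Trire2:66819 at 9.38, Trire2:62872 at 8.89, the MFS gene Trire2:105260 named above and the GH67 gene Trire2:72526 at 8.10. Of these, Trire2:62872 alone had a glucose mean above the low end, so the order of the others, and that of the 5 largest falls, is not settled by these values.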

How the data were processed

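The authors deposited log2 signals, 1 per feature and array, from single-colour NimbleGen arrays of 6 samples, summarised over several probes by RMA. For that step, neither version nor background correction nor array normalization is given in the sources used here. A second deposited table holds group means, folds, p-values and F values of the authors and was not used. Columns of values per array left unused were 0.

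The deposited log2 values were fitted unchanged with limma 3.58.1 in R 4.3.3 (lmFit and eBayes), with groups from the sample labels and all 6 arrays sharing 1 spread (3 residual and 5.10 prior degrees of freedom). Genes were called at over 2-fold and an adjusted p under 0.05 (Benjamini-Hochberg, 9126 features, no filter). The test was tried on simulated data. The number of arrays, 2 per group, limits the precision. Replicate numbers did not pair the arrays, as same-numbered lactose and glucose arrays had deviations with a correlation of -0.01.

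The members and lists were chosen with earlier results of these data known. Named were all annotated genes within 2-fold of glycerol, 2 unannotated rises and falls, the 5 largest differences each way, up to 4 members of each list plus members against its direction, tef1, xyr1, cre1 and the genes at the limits. Other genes, such as the members of neighbouring runs, the stage markers, hfb1 and those of carbon metabolism beyond that number, were named after their values were seen. Symbols and gene order came from RefSeq (assembly v2.0 of QM6a), which gave symbols for 235 features. Alternatives were other thresholds, a 2-group fit, trend and robust options, the replicate block, quantile normalization, filters on dim genes and leaving out each array. Python 3.11.15 with pandas 2.3.3 and matplotlib 3.10.9 was used for counts and figures.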

Additional observations from a re-analysis of the deposited data

How the results depend on the processing

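The counts of genes higher than on glucose, lower, higher within 2-fold of glycerol and lower within 2-fold of glycerol (1417, 1264, 433 and 566) followed the fold limit most. At over 1.5-fold they were 2089, 2249, 926 and 1357, and at over 4-fold 638, 458, 103 and 125. Holding lactose and glycerol within 1.5-fold left 217 higher and 291 lower genes, and requiring glycerol to be over 2-fold from glucose as well left 234 and 281. Without the dimmest 25% of genes, which left 6844 features, the counts were 910, 886, 348 and 409, so higher and lower calls both fell. A filter on the mean signal over all arrays can also remove genes that were bright on lactose alone. These counts therefore do not show how many of the calls were of genes dim on every carbon source. With the replicate number as a block, the counts were again 1417, 1264, 433 and 566. Each group holds both replicate numbers, so such a block leaves the differences between groups unchanged. As the fold limit set the counts, this says nothing about a pairing of the arrays. A further quantile normalization gave 1376, 1331, 453 and 565, with 389 and 494 of the genes within 2-fold of glycerol shared with the 433 and 566. Leaving out 1 array at a time gave 1384 to 1449, 1252 to 1325, 422 to 471 and 549 to 610.

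Of 603 alternatives for 67 named genes, 594 kept the direction and the side of the threshold against glucose, 3 lost the call (argi in 2 cases, and sso1 at -0.99 without glucose replicate 1) and 4 gained it (psa6 and snf1, 2 each). Membership among the genes within 2-fold of glycerol changed in 24 cases over 12 named genes. In 8 cases argi, erf1, cit1 or Trire2:64049 left, and in 16 a gene entered (ro-4 in 3, snf1, psa6, Trire2:103039 and Trire2:112633 in 2 each, Trire2:107197 in 3, sso1 and chi18-12 in 1 each). The sign turned in tef1, which was not called, at 0.0070 after quantile normalization and between -0.2456 and 0.0836 when 1 array at a time was left out, the highest without glucose replicate 1. The cause was not tested. The values carry no measure of signal over background, so differences at the low end of the arrays are the least certain.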
